A study of Mus musculus with 4 samples.

Results

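Heat shock proteins and their J-domain partners were read out of the arrays by the prefix of the gene name on the probe: Hspa, Hspb, Hsp90, Hspd, Hspe, Hsph or Dnaj. The array held 74 such genes out of 28095 gene names, 29 with an Hsp prefix and 45 named Dnaj, on 140 probes. Each gene was represented by its brightest probe. Testing required the scanner's well-above-background call for this probe on each array of the KO or of the WT genotype, and 59 of the 74 chaperone genes passed, as did 14737 genes in all. The members were kept apart by where their products act. There were 10 stress-inducible and 21 constitutive cytosolic genes, 8 of the lumen and 6 of the membrane of the endoplasmic reticulum (ER), and 10 mitochondrial genes. The others were 6 small heat shock genes, 2 partners of heat shock proteins caught by the prefix (*Hspbp1* and *Hspbap1*) and 11 genes given no group.

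RNA came from LSK cells, the lineage-negative bone marrow cells positive for Sca-1 and c-Kit that contain the hematopoietic stem cells and early progenitors. Meis1-KO mice were *Mx1-Cre*+ *Meis1* fl/fl and Meis1-WT mice were *Meis1* fl/fl without Cre, both on C57BL/6J, so the controls carried the floxed alleles too. Poly(I:C), which induces the interferon-responsive *Mx1-Cre* transgene, was injected 4 times at 1.5 µg/g at 4 to 8 weeks of age, and cells were collected 1 week later. *Mx1-Cre* also acts outside blood cells. The sample labels give poly(I:C) to both genotypes, whereas the array methods call the controls sham-treated, so a response to poly(I:C) and the loss of Meis1 cannot be told apart if the latter holds. Each genotype had 2 pools of 6 mice, and each pool was hybridized to 1 array after amplification of 10 ng of RNA. KO pool 1 and WT pool 1 shared slide 1, and KO pool 2 and WT pool 2 shared slide 2.

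Hsp70 proteins grip exposed hydrophobic stretches of unfolded proteins and release them in a cycle driven by ATP. J-domain proteins, the Dnaj family, bring the client and stimulate ATP hydrolysis, and nucleotide exchange factors such as the Hsp110 proteins reset the cycle. Hsp90 proteins act late in the folding of kinases and receptors, and small heat shock proteins hold unfolded chains without ATP. In the cytosol, heat shock factor 1 turns on the inducible members through heat shock elements in their promoters. The ER and the mitochondrion each have their own Hsp70 with its own J-domain partners, and the ER set is raised by the unfolded protein response.

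All values below are log2 signals relative to the array's 75th percentile, and differences are KO minus WT on that scale. Between 49.2% and 57.4% of spots were well above background on an array, with the lowest share on KO pool 2, which also correlated least with the other arrays (0.891 to 0.916 over tested probes, against 0.956 to 0.967 among the other 3). Both *Meis1* probes were lower in the KO pools on each slide, with mean differences of -1.70 and -0.997 (limma, adjusted p = 0.983 for both). The first of them had an unadjusted p under 0.01 and a change of more than 2-fold only with the slide as a block, and its KO pool 2 spot was not well above background. Their position relative to the deleted exon 8 was not analysed here. Stem and progenitor markers of the LSK gate were present on all 4 arrays, with all 10 listed markers tested and a median difference of -0.04. The median difference over all tested genes was 0.13, with 0.02 on slide 1 and 0.21 on slide 2. On slide 2 it grew with brightness, from -0.11 in the dimmest 3685 genes to 0.52 in the brightest 3684, whereas the same medians ran from 0.12 to -0.01 on slide 1. Among the chaperone genes, 29 lay among the brightest 3684, and their median was -0.06 on slide 1 and 0.13 on slide 2.

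None of the 59 tested chaperone genes met the criteria used in the study (p below 0.01 before adjustment and a change of more than 2-fold) in limma, a linear model that shares its estimate of the spread over all 22007 tested probes and adjusts p by Benjamini-Hochberg. Over all tested genes 0.726% met them as lower and 0.149% as higher. The lowest adjusted p of a chaperone gene was 0.983, and none had an unadjusted p under 0.05. When the slide that both genotypes share was added as a replicate block, 2 chaperone genes met the criteria, *Hspa1a* and *Dnaja4*, both lower in the KO pools, against 1.57% lower and 0.617% higher over all genes. Only *Hspa1a* had an adjusted p under 0.05 in that fit (limma, adjusted p = 0.0416). Both genes passed the background filter through the WT pools alone, and their KO pool 2 spots were not well above background, so both calls rest on dim spots and neither gene is among those measured on all 4 arrays. By direction alone, 18 chaperone genes were lower and 15 higher on both slides, against 19.3% and 32% of all tested genes. The 2 genotypes did not overlap for 6 chaperone genes with the KO pools lower and for 10 with the KO pools higher, where 9.84% and 16.6% of all genes did so. The methods' t-test also put none of the 59 past the criteria. The median difference over the 59 genes was 0.01, with 29 lower. It was -0.20 with 38 lower after quantile normalization, -0.14 with 36 lower without WT pool 2, and 0.09 with 22 lower without WT pool 1. In such bulk RNA, fewer cells of a type and less RNA per cell cannot be told apart.

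*Hspa1a*, which encodes the stress-inducible cytosolic Hsp70, varied more across the arrays than any of the other tested chaperone genes. Its signal was 4.48 in WT pool 1, 0.12 in KO pool 1, -2.68 in WT pool 2 and -5.39 in KO pool 2, where it was not well above background. It was therefore lower in the KO pool on both slides, but KO pool 1 stood above WT pool 2, so the genotypes overlapped. The difference on slide 1 was -4.36, a 20.6-fold higher signal in the WT pool. On slide 2 it was -2.71 as measured, and at least 1.48-fold once the dim KO spot was set to the lowest signal well above background on its array. The fitted mean difference was -3.54 with a standard error (SE) of 2.60 (limma, adjusted p = 0.983), and the gap between the 2 WT pools was larger than this difference. Without WT pool 1 the difference was 0.05, and without WT pool 2 it was -7.12 and met the criteria, with the WT side resting on WT pool 1 alone. With normexp background correction, which compresses dim signals, it was -1.90.

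A second *Hspa1a* probe overlaps the first on the genome (mm9 chr17:35106796-35106855 and chr17:35106766-35106825, minus strand). It read 1.45 in WT pool 1 and -2.96 in KO pool 1, a 21.3-fold difference, and was not well above background on slide 2. *Hspa1b*, the near-identical neighbour that also encodes inducible Hsp70, was well above background only in WT pool 1, at -1.47, which was at least 6.65 times the signal of KO pool 1. WT pool 1 was thus the highest array for both genes at all 3 of these probes. The copies resemble each other closely, and how far probes designed for one bind RNA of the other was not tested.

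The promoters of this pair carry the same heat shock element. In RefSeq promoters on GRCm38.p6, which were held for 60 of the 74 chaperone genes and run from 250 bases before to 50 after the start, GAANNTTC was searched on both strands as the core of a heat shock element and was found in 7.86% of all 32851 windows. It was present in 7 of 9 cytosolic inducible genes and in none of 7 genes of the ER lumen. The stretches of *Hspa1a* (chr17:34972203-34972310) and *Hspa1b* (chr17:34959285-34959392), both on the minus strand, are shown with that of *Dnaja4* (chr9:54699444-54699539, plus strand), the other gene that met the criteria with the replicate block, with the core in capitals.
Hspa1a: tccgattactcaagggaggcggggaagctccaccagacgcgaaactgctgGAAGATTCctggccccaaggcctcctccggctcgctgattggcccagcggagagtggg
Hspa1b: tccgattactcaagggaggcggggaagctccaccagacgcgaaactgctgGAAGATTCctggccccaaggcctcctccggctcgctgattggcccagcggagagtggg
Dnaja4: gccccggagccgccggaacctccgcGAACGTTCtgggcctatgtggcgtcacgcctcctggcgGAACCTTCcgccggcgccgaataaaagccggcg
The core lies at position -104 from the start in both Hsp70 genes, whose 250 bases before the start were identical at 247 positions, and *Dnaja4* has 2 cores, at -90 and -52. A match of these letters is a description of the sequence and not evidence of binding.

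*Dnaja4*, a J-domain partner of cytosolic Hsp70, read -1.66 and -2.04 in the WT pools and -2.56 and -5.11 in the KO pools, the last not well above background. Both KO pools were below both WT pools. It differed by -0.91 on slide 1 and by -3.07 on slide 2, the latter at least 2.31-fold when bounded as above. The mean difference was -1.99 with an SE of 0.84 (limma, adjusted p = 0.983), and with the replicate block it met the criteria with an adjusted p of 0.441. With normexp background correction the mean difference was -0.0097. It ranged from -3.26 to -0.71 as each array was left out, and without KO pool 1 its adjusted p was 0.0388 (limma), a value for which the dim spot of KO pool 2 was the only KO measurement.

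**Figure D1:**
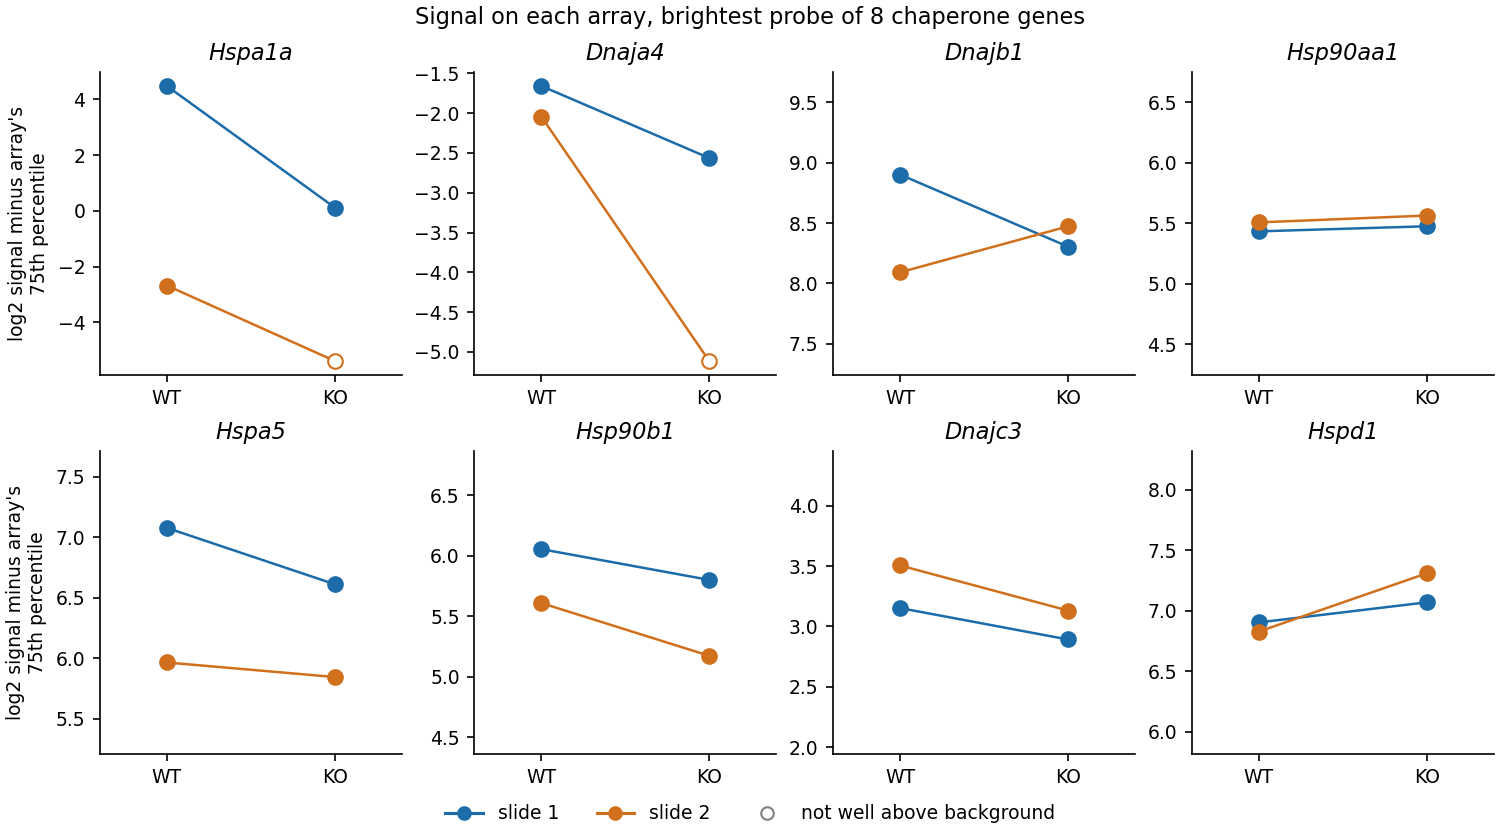
Log2 signal minus the array's 75th percentile for the brightest probe of 8 chaperone genes, with WT and KO pools on the x axis, lines joining the 2 arrays of a slide and open symbols for spots not well above background; each panel has its own y axis. *Hspa1a* differed by -4.36 on slide 1 and -2.71 on slide 2, and the slides themselves lay far apart, whereas the 4 values of *Hsp90aa1* lay between 5.43 and 5.56.

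Of the other 6 tested inducible genes, *Hspb8* was lower on both slides and had the same array order as *Hspa1a*, *Hsp90aa1* was higher on both, and 4 went opposite ways on the slides. *Hsp90aa1*, the inducible cytosolic Hsp90, read 5.48 and 5.56 in the KO pools and 5.43 and 5.51 in the WT pools, a difference of 0.05 with an SE of 0.42. *Hsph1*, the Hsp110 exchange factor, read 4.82 and 4.14 against 4.58 and 4.42, with a difference of -0.02. *Dnajb1*, the main inducible J-domain partner of Hsp70, read 8.30 and 8.47 in the KO pools and 8.90 and 8.09 in the WT pools. Its differences were -0.60 on slide 1 and 0.38 on slide 2, so the slides went opposite ways around a mean of -0.11. *Dnajb4*, a relative of *Dnajb1*, had a mean difference of -0.04, and *Dnaja1*, a farnesylated J-domain protein, one of 0.26. *Hspb8*, a small heat shock protein that works with Bag3, read -1.09 and -1.97 in the KO pools and -0.92 and -1.38 in the WT pools, with differences of -0.17 and -0.59. *Hspb1* was well above background on 1 array only and was not tested.

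Of the 8 tested inducible genes, 6 were lower and 2 higher on average, with a median of -0.08 (-0.20 on slide 1 and -0.11 on slide 2) against 0.13 for all genes. The sign of that median depended on scaling and on single arrays. It was 0.01 with 4 lower when arrays were centred on their medians, and -0.29 with all 8 lower after quantile normalization. Without WT pool 1 it was 0.05 with 2 lower, and without WT pool 2 it was -0.40 with 6 lower. The regulators and co-chaperones of the cytosolic system stayed close to the background. Of 24 listed heat shock factors and co-chaperones, 22 were tested, 10 were lower and 12 higher, none met the criteria with or without the replicate block, and the median was 0.11, turning to -0.11 after quantile normalization. *Unc45a*, a myosin-directed Hsp90 co-chaperone, had the highest difference of that list at 0.96, and *Fkbp5*, an Hsp90-bound immunophilin, the lowest at -0.71. *Hsf1* itself, the main heat shock factor, differed by 0.28.

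The order of the 4 arrays seen for *Hspa1a*, WT pool 1 above KO pool 1 above WT pool 2 above KO pool 2, was found for 11 of the 59 chaperone genes, *Hspa1a*, which defined it, included, against 7.02% of all tested genes. Immediate early genes, which cells switch on within minutes of handling or stress, showed it for 6 of 12 tested genes, an order looked for after the values of *Hspa1a* had been seen. *Fosb*, a transcription factor subunit of that class, read 5.25 in WT pool 1, 4.56 in KO pool 1, 3.74 in WT pool 2 and 1.22 in KO pool 2. *Nr4a1*, a nuclear receptor of the same class, read 7.08, 6.65, 5.52 and 2.91 on the same arrays. The summed signal of the 12 genes, in units of the 75th percentile, was 1233 in WT pool 1 and 1116 in KO pool 1, and 699.8 in WT pool 2 and 601.5 in KO pool 2. Of the 12, 7 were lower on average, their median difference was -0.26 and none met the criteria. Without KO pool 2 none of the 12 was lower (median 0.28), without WT pool 1 there were 4 (median 0.16), the median was -0.97 without KO pool 1 and -1.01 without WT pool 2, and after quantile normalization all 12 were lower. Their part in the *Hspa1a* result was not tested.

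**Figure D2:**
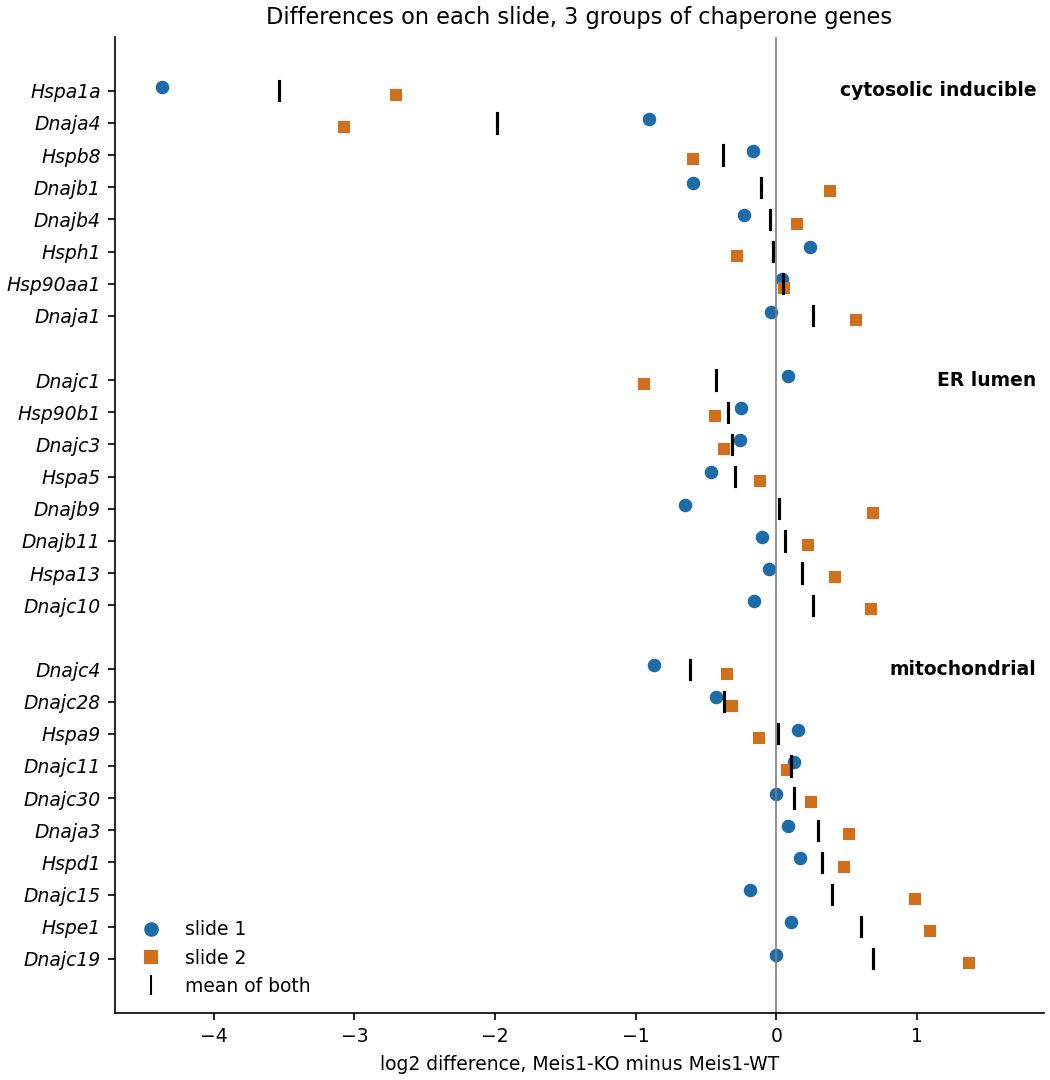
Log2 difference, KO minus WT, for each tested gene of the cytosolic inducible, ER lumen and mitochondrial groups, with circles for slide 1, squares for slide 2 and bars for their mean. *Hspa1a* lies apart on both slides and *Dnaja4* on slide 2, 7 of 8 genes of the ER lumen are below 0 on slide 1, and *Dnajc19* and *Hspe1* have the highest means of the mitochondrial group through slide 2.

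In the ER lumen, the main Hsp70 and Hsp90 and 1 of their J-domain partners were lower on both slides, and no gene was higher on both. *Hspa5* (BiP), the ER Hsp70 and the sensor-binding chaperone of the unfolded protein response, read 6.61 and 5.84 in the KO pools and 7.08 and 5.96 in the WT pools. Its differences were -0.47 and -0.12, smaller than the gap between slides, and it turned to 0.09 without KO pool 2 and to 0.26 without WT pool 1. *Hsp90b1* (Grp94), the ER Hsp90, read 5.80 and 5.17 against 6.05 and 5.61, with differences of -0.25 and -0.44. *Dnajc3* (p58IPK), a J-domain partner of BiP, read 2.89 and 3.13 in the KO pools and 3.15 and 3.50 in the WT pools, a difference of -0.32 with an SE of 0.44. The KO values of *Dnajc3* did not overlap the WT values, as in 9.84% of all genes with the KO pools lower. Each of its 4 probes was lower in the KO pool on both slides. These probes read the same 4 pools, so they are not replicates. None of the 3 passed the test (limma, adjusted p = 0.983), and all 3 stayed negative under the 4 other ways of scaling, background correction and source table, from -0.63 to -0.21. As each array was left out, *Hsp90b1* ranged from -0.66 to -0.03 and *Dnajc3* from -0.49 to -0.14.

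These same 3 genes were the ones in which the letters of the ER stress element were found, CCAAT and CCACG with 9 bases of any kind between them on either strand, present in 0.119% of all promoter windows and in no chaperone gene outside the ER lumen. A promoter was held for 7 of the 8 genes of the lumen. The stretches below, from GRCm38.p6, show it in capitals for *Hspa5* (chr2:34772000-34772068, plus strand), *Hsp90b1* (chr10:86705523-86705666, minus strand) and *Dnajc3* (chr14:118937802-118937870, plus strand).
Hspa5: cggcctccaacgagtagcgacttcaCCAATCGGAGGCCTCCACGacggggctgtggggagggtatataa
Hsp90b1: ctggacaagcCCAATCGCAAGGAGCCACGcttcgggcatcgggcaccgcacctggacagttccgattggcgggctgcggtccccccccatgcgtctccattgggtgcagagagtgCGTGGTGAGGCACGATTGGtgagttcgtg
Dnajc3: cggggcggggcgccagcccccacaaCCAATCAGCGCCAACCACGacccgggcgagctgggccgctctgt
*Hspa5* has 1 element, starting at -65, *Dnajc3* 1 at -105, and *Hsp90b1* 2 in opposite orientations, at -212 and -107. The match was made after the values were known, and nothing about the factors that bind there follows from it.

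The remaining genes of the lumen went opposite ways on the slides. *Dnajb9* (ERdj4), which helps dispose of misfolded ER proteins, differed by -0.65 on slide 1 and 0.69 on slide 2. *Dnajb11* (ERdj3), a BiP partner, differed by -0.10 and 0.22, *Dnajc10* (ERdj5), a disulfide reductase, by -0.16 and 0.68, and *Hspa13*, a microsomal Hsp70 relative, by -0.05 and 0.42. *Dnajc1* (ERdj1), which recruits BiP to the translocating ribosome, differed by 0.08 and -0.94. On slide 1, 7 of the 8 were thus lower, and on slide 2, 4 were. Over the lumen and membrane genes together, 8 of 13 were lower, 5 on both slides and none higher on both, with a median of -0.23 that was -0.25 on slide 1 and -0.01 on slide 2. It was 0.08 without WT pool 1. *Dnajb14*, a J-domain protein anchored in the ER membrane, had the lowest difference of them, with -2.57 and -2.84 in the KO pools and -2.11 and -1.58 in the WT pools, a mean difference of -0.86 with an SE of 0.45 that did not pass the test (limma, adjusted p = 0.983) and was -0.046 with normexp.

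Other genes of ER folding and the unfolded protein response also differed between the slides. Of 26 listed and tested, 24 were lower on slide 1, where 47.4% of all genes were, and 12 on slide 2, where 40% of all genes were. On both slides 10 were lower and none higher, against 19.3% and 32% of all genes, and 7 had KO pools below WT pools without overlap, against 9.84% of all genes. The median was -0.12, with -0.31 on slide 1 and 0.23 on slide 2, where that of all genes was 0.21. It was 0.040 without KO pool 1, 0.018 without WT pool 1, -0.043 with arrays centred on their medians and -0.31 after quantile normalization. None met the criteria, and with the replicate block *Ddit3* (CHOP), a transcription factor of the response, met them at a difference of -1.66 (limma, adjusted p = 0.450), which rests on a spot not well above background in KO pool 2. *Sec61b*, a subunit of the translocation channel, had the highest difference of the list at 0.66. *Derl3* and *Xbp1* stand on both this list and the plasma cell list.

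Markers of plasma cells, which are rich in ER and are not LSK cells, were lower in the KO pool on slide 1, as most ER genes were, and mostly higher on slide 2, where 12 of the 26 genes of the ER list and 4 of the 8 lumen chaperones were lower. Of 10 listed plasma cell markers 8 were tested, and all 8 were lower in the KO pool on slide 1 and 2 of 8 on slide 2, with medians of -2.85 and 0.53. Summed over the 9 on the array, untested *Prdm1* included, their signal was 45.4 in WT pool 1, 7.93 in KO pool 1, 18.6 in WT pool 2 and 32.0 in KO pool 2. *Pou2af1*, a coactivator of the B and plasma cell lineage, read 4.14 in WT pool 1 and 1.34 in KO pool 1, and 2.07 and 2.29 on slide 2. *Prdm1*, a defining factor of plasma cells, was well above background on 1 array only, WT pool 1. Their part in the ER result was not tested. Of the B lineage markers 3 of 8 were tested and all were lower on slide 1. Granulocyte and monocyte markers, 5 of 7 on the array tested, were higher on slide 1 than on slide 2 in both genotypes for 4 of the 5 and lower for *Elane*. Summed over all 7, their signals were 158 and 171 in KO pool 1 and WT pool 1 against 88.2 and 52.0 in KO pool 2 and WT pool 2. Of the T lineage markers 2 of 6 were tested, and signals summed over all 6, the untested genes included, were 0.34 to 0.79. Erythroid markers, 6 of 7 tested, had signals summed over all 7 from 23.3 in WT pool 2 to 245 in KO pool 2. Most of both sums came from *Hbb-b1*, a globin gene, which read 4.46 and 7.93 on these arrays, where every other marker of the list read below 0. Among these markers *Elane*, a neutrophil protease, and *Rhag*, a red cell membrane protein, met the criteria at -1.57 and 1.72, and *Irf4*, a plasma cell factor, met them with the replicate block at -2.36, with KO pool 2 not well above background.

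**Figure D3:**
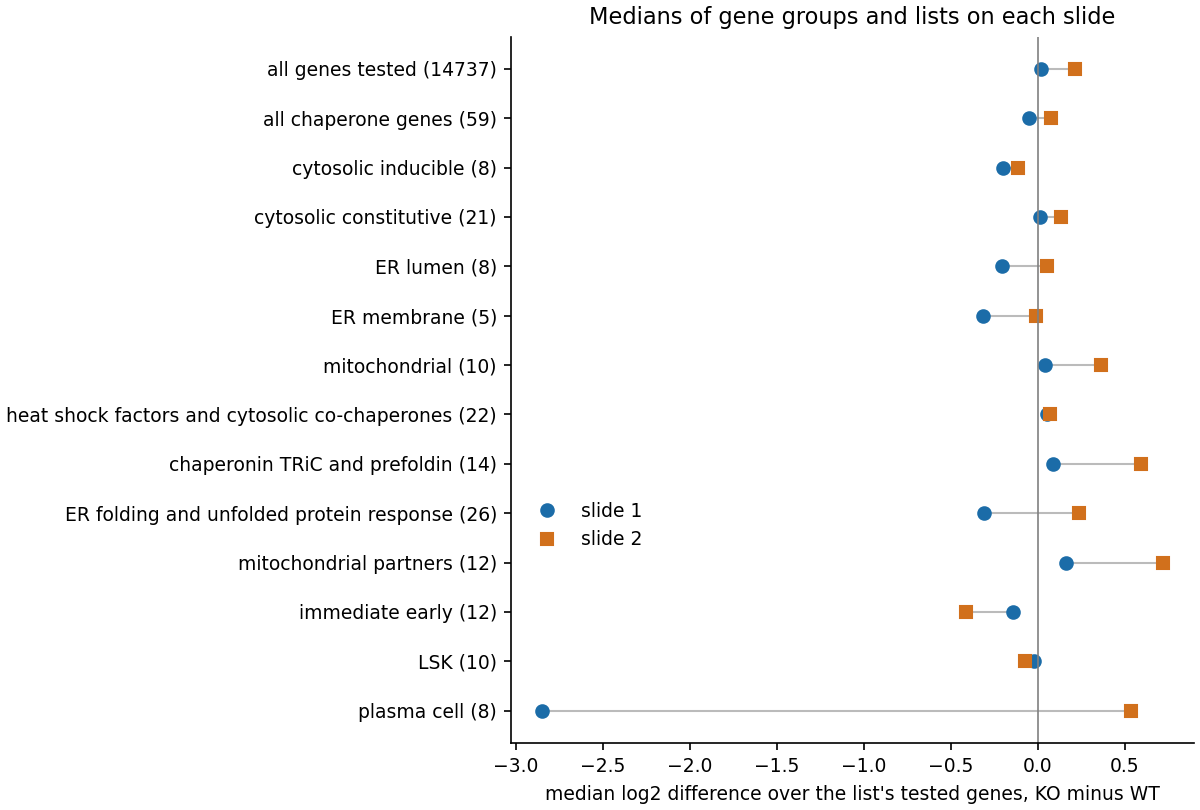
Median log2 difference, KO minus WT, over all tested genes and over the tested genes of 13 chaperone groups, pathway lists and marker lists, with the number of genes in parentheses, circles for slide 1 and squares for slide 2. The ER list lies at -0.31 on slide 1 and 0.23 on slide 2 and the plasma cell markers at -2.85 and 0.53, whereas the chaperonin list and the mitochondrial partners lie highest of those drawn on slide 2, at 0.59 and 0.72.

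Among the mitochondrial chaperones, the chaperonin pair *Hspd1* and *Hspe1* was higher in the KO pools on both slides. *Hspd1* (Hsp60), which forms the folding cage of the matrix, read 7.07 and 7.31 in the KO pools and 6.90 and 6.83 in the WT pools. *Hspe1* (Hsp10), its lid, read 5.97 and 6.77 against 5.86 and 5.67. Neither gene's KO values overlapped its WT values, and the differences of 0.32 (SE 0.42) and 0.60 (SE 0.48) did not pass the test (limma, adjusted p = 0.983). As each array was left out, *Hspd1* ranged from 0.20 to 0.44 and *Hspe1* from 0.20 to 1.00. The second *Hspd1* probe gave a difference of -0.01. Quantile normalization turned the *Hspd1* difference to -0.02.

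The pair is transcribed in opposite directions from 1 stretch of chromosome 1. The annotated start of *Hspe1* on the plus strand lies 216 bases from an *Hspd1* start on the minus strand and 95 bases from another. The window of *Hspe1* and that of the *Hspd1* start 216 bases away hold the same heat shock element of 3 units, and the window of the nearer start holds none. The letters searched were GAANNTTC followed by NN and a further GAA on either strand, a motif that occurs in 0.603% of all promoter windows and contains the core searched above. It is shown in capitals in the orientation of *Hspe1* (chr1:55088034-55088101, GRCm38.p6).
Hspe1: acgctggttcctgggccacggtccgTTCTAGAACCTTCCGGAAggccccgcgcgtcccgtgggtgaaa
The capitals cover 2 overlapping matches, at -89 and -84 from the *Hspe1* start. Among the 7 mitochondrial genes with a promoter, these were the only 2 with a heat shock element core.

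*Dnajc19*, a J-domain subunit of the import motor, had the highest mean of the mitochondrial group, 0.69, but did not differ on slide 1 (2.99 in both pools) and owed its difference to KO pool 2 (4.45 against 3.08). *Dnajc15*, its close relative, likewise differed by -0.19 on slide 1 and 0.98 on slide 2. *Hspa9* (mortalin), the matrix Hsp70, read 4.03 and 4.16 against 3.88 and 4.28, a difference of 0.01. *Dnaja3* (Tid1), its J-domain partner, was higher by 0.08 and 0.51, and *Dnajc11*, a protein of the membrane contact sites, by 0.12 and 0.08, with no overlap between genotypes for *Dnajc11* and overlap for *Dnaja3*. *Dnajc30* differed by 0.12 on average. *Dnajc4* and *Dnajc28* were lower on both slides, with differences of -0.87 and -0.35 and of -0.43 and -0.32. In all, 8 of 10 were higher and 2 lower on average, with a median of 0.21 (0.04 and 0.36 on the slides) that became -0.04 without KO pool 2.

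In the lists beside this group, the medians were above 0 on both slides and larger on slide 2. The matrix and import partners of these chaperones had 12 of 12 genes tested, 8 higher and 4 lower on average, where 8833 of all 14737 genes were higher. On slide 1, 1 of the 12 was lower and on slide 2, 4 were, with medians of 0.16 on slide 1 and 0.72 on slide 2, and -0.03 overall without KO pool 2. Within it *Grpel1*, the nucleotide exchange factor of mortalin, was highest at 0.64 and *Afg3l2*, an inner membrane protease, lowest at -0.42. The cytosolic chaperonin TRiC with prefoldin, the chain that folds actin and tubulin, had 14 of 14 genes higher on average, 8 of them on both slides where 32% of all genes were, with a median of 0.31 (0.09 on slide 1 and 0.59 on slide 2), although 5 of the 14 were lower after quantile normalization and 3 with normexp background correction. The list's extremes were *Cct3* at 0.66 and *Cct6a* at 0.05, both TRiC subunits. Without KO pool 2 the median was 0.03, with 5 lower. The slide 2 median lay close to the 0.52 of the brightest 3684 genes given above, whose slide 1 median was -0.01. The part of brightness in the list's values was not tested. None of these 26 genes met the criteria.

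**Figure D4:**
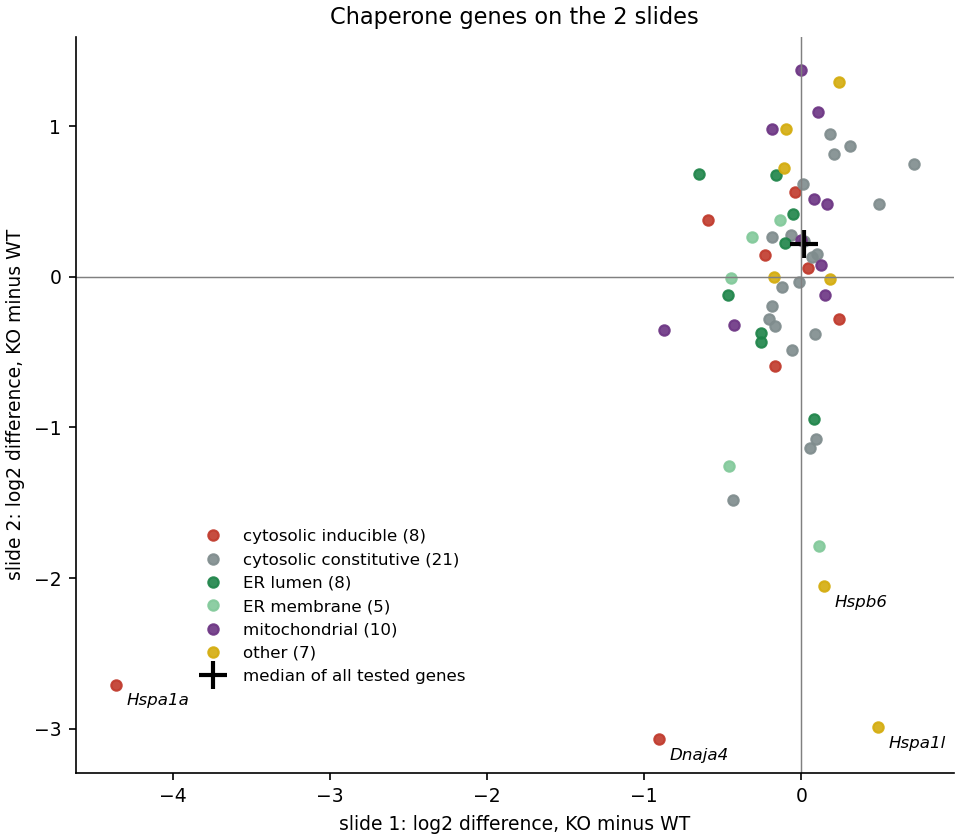
Log2 difference, KO minus WT, on slide 1 (x axis) and slide 2 (y axis) for the 59 tested chaperone genes, coloured by group with the number of genes in parentheses, and a cross at the medians of all 14737 tested genes (0.02 and 0.21). *Hspa1a* is the only gene more than 1 log2 unit from 0 on slide 1, and the genes spread more on slide 2.

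Constitutive cytosolic chaperones showed no common direction. All 21 were tested, 10 lower and 11 higher, with a median of 0.04 that was -0.21 after quantile normalization. The number lower was 4 without KO pool 2 and 7 without WT pool 1 (medians 0.19 and 0.24). It was 11 without KO pool 1 and 13 without WT pool 2 (medians -0.16 and -0.19). *Hspa8* (Hsc70), the housekeeping Hsp70, read 6.59 and 6.03 in the KO pools and 6.50 and 6.41 in the WT pools, a difference of -0.14 with an SE of 0.45. *Hsp90ab1*, the constitutive Hsp90, read 8.20 and 7.70 against 8.36 and 8.03, a difference of -0.25. *Dnajc9*, a histone chaperone of dividing cells, differed by -0.03.

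The lowest and highest differences among the chaperone genes measured on all arrays and changed the same way on both slides did not pass the test either. *Dnajc21*, which acts in the maturation of the large ribosomal subunit, had the lowest such difference, with -0.16 and -1.50 in the KO pools and 0.28 and -0.02 in the WT pools (-0.96, SE 0.57). *Dnajb14*, *Dnajc4*, *Hspb8* and *Dnajc28* followed, with the values above. *Hspb11*, an intraflagellar transport protein that carries a small heat shock name, had the highest such difference, with 4.07 and 5.22 in the KO pools and 3.83 and 3.93 in the WT pools (0.77, SE 0.53). As each array was left out, *Dnajc21* ranged from -1.63 to -0.28 and *Hspb11* from 0.19 to 1.34. *Dnajb5*, a cytosolic J-domain protein, was higher by 0.73 at its brightest probe, *Dnajc27*, a protein with a Ras-like domain beside its J domain, by 0.59, and *Hspa14*, the Hsp70 of a ribosome-bound pair, by 0.57, beside the *Hspe1* value above. *Dnajc2*, the J-domain member of that ribosome-bound pair, differed by -0.54, 0.05 on slide 1 and -1.14 on slide 2. The adjusted p of all these genes was 0.983 (limma). With normexp *Dnajc21* was at -0.48, and with the mean of its probes *Dnajb5* was at -0.59.

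At the brightest probe of each tested gene, dim chaperone spots lay on KO pool 2. The 4 tested genes whose brightest probe was not well above background everywhere, *Hspa1a*, *Dnaja4*, *Hspa1l* and *Hspb6*, were dim on that array alone. *Hspa1l*, a testis-enriched Hsp70 beside *Hspa1a*, read -2.65 in KO pool 1 and -5.20 in KO pool 2 against -3.14 and -2.21, and *Hspb6*, a small heat shock protein of muscle, -2.53 and -4.16 against -2.68 and -2.10. Both were thus slightly higher in the KO pool on slide 1 and lower, by at least 2.06-fold and 2.21-fold, on slide 2. Without KO pool 1, *Hspa1l*, *Hspb6*, *Dnajc21* and *Dnaja4* met the criteria, in a fit that rests on KO pool 2 as the only KO array and calls 2215 probes. Of the 15 genes with no tested probe, 8 were well above background on no array and 7 on 1 or 2. Most of these are muscle or testis members, such as *Hspb2*, *Hspb3*, *Hspb7*, *Hspb9*, *Dnajb3*, *Dnajb7*, *Dnajb8* and *Dnajb13*, and the others were *Hspa1b*, *Hspb1*, *Hspa12a*, *Hspbap1*, *Dnajc5g*, *Dnajc22* and *Dnajc25*.

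Probes of 1 gene did not always give 1 answer. Of the 32 chaperone genes with several tested probes, 13 were lower at all of them, 6 higher at all and 13 of both signs. *Dnajb5* differed by 0.73 at its brightest probe and by -0.14 and -2.36 at the others. The last probe was not well above background in either KO pool, at least 2.31-fold lower than in the WT pools (limma, adjusted p = 0.983), and met the criteria with the replicate block. *Dnajc16*, an ER membrane protein, gave 0.12, 0.11 and -1.73, the last with a KO pool 2 spot not well above background and at least 1.60-fold lower on slide 2, and *Hsp90ab1* -0.25 and -0.76. *Hsp90b1* and *Dnajc3* were lower at all of their probes, from -0.70 to -0.34 and from -0.51 to -0.32.

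**Figure D5:**
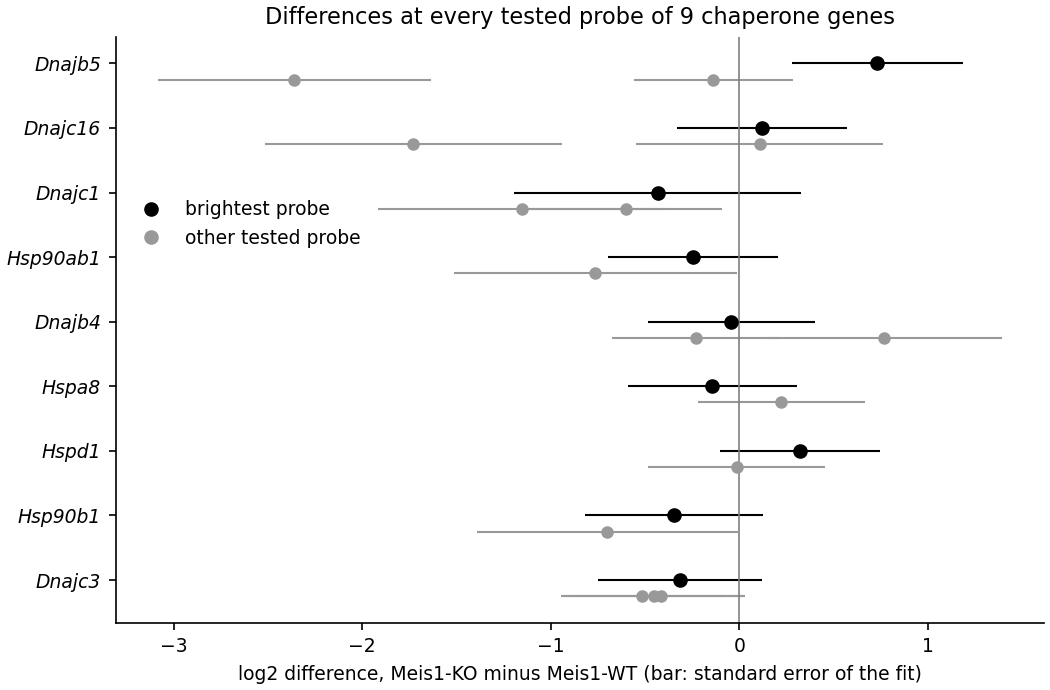
Log2 difference, KO minus WT, at every tested probe of 9 chaperone genes, black for the brightest probe and grey for the others, with bars of 1 standard error of the limma fit. The probes of *Dnajc3* run from -0.51 to -0.32, whereas those of *Dnajb5* run from -2.36 to 0.73.

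For the 30 chaperone genes with at least 2 probes well above background on all arrays, the probe farthest from the 3′ end and the one nearest to it were compared. On slide 2 the far probe gave the lower difference for 20 of 30 genes, with a median gap of -0.13, and on slide 1 for 8 of 30, with a median gap of 0.13. Over 4169 genes of the array the same shares were 53.0% and 47.3%, with median gaps of -0.05 and 0.02. *Hsp90ab1* had a difference of -1.72 at its far and -0.32 at its near probe on slide 2, and *Hsp90b1* -1.19 and -0.44. The part of a probe's distance from the 3′ end in the differences was not tested.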

How the data were processed

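Labelled cDNA from 4 LSK pools was hybridized to one-colour Agilent whole-genome mouse arrays. The authors deposited scanner intensity values from Agilent Feature Extraction (9.1 in the submitters' processing notes, 9.5.3.1 in the file headers), already background-subtracted and detrended but not scaled between arrays. The authors' series table of rounded intensities served as an alternative. Control and outlier spots were left out, replicate spots averaged, and log2 intensities computed from the deposited values were centred on each array's 75th percentile.

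Probes well above background on both KO or both WT arrays, and valued on all 4, were fitted in limma 3.58.1 (R 4.3.3) without a block, with Benjamini-Hochberg adjustment. The lowest two-sided exact permutation p for 2 pools against 2 is 0.333. The number of arrays limits the precision. Replicates are pools of mice, so p-values measure the spread between pools. In simulated data with 200 of 22007 probes changed by 3 log2 units, 91% of them were called, 100% in the right direction, beside 192 unchanged probes.

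A gene took its probe with the highest mean signal among tested probes. Text names went to all tested genes of the inducible, ER lumen and mitochondrial groups, and to the 5 lowest and 5 highest differences among genes measured on all arrays with the same sign on both slides. Other genes were chosen after their values were seen. The members, groups and lists were chosen with earlier results of these data known. Same-numbered pools shared a slide, by the barcodes in the files, and their deviations from the genotype means correlated at 0.266. Alternatives changed scaling, background correction, source table, dim-probe filter, outlier spots, block, test, probes per gene and arrays used. Probe positions are on mm9 as deposited. Promoters came from RefSeq on GRCm38.p6, without entries for Dnajc11, Dnajc12, Dnajc18, Dnajc2, Dnajc22, Dnajc30, Dnajc5, Dnajc5b, Hsp90aa1, Hsp90ab1, Hspa13, Hspa8, Hspa9 and Hspb2.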

Additional observations from a re-analysis of the deposited data

How the results depend on the processing

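Of the 32 genes named by rule, 12 kept their sign under every alternative and 20 reversed at least once, and 39 of 461 alternative values were reversed. With the replicate block, 2 chaperone genes (both among the named genes) and 437 probes met the criteria, against 0 and 162 without it, and the block changed no other named chaperone call. The number of probes was 49 with normexp background correction, 294 with no filter on dim probes, 53 when all 4 arrays had to be well above background, 30 by the methods' t-test and 101 with an intensity trend. Centring on medians moved the inducible median to 0.0064, *Dnajb4* to 0.039 and *Hsph1* to 0.060. Quantile normalization gave medians of -0.20 over all chaperone genes, -0.29 for inducible and -0.21 for constitutive genes, and reversed *Dnaja1* (-0.043), *Dnajb11* (-0.094), *Dnajb9* (-0.15), *Hsp90aa1* (-0.24), *Hspa9* (-0.20) and *Hspd1* (-0.020). Normexp gave -0.21 for inducible and -0.094 for constitutive genes, with *Dnajb11* at -0.14, *Dnajb9* at -0.18, *Dnajc4* at 0.061, *Hsp90aa1* at -0.19 and *Hspa9* at -0.19. The mean of all probes of a gene gave -0.095 for constitutive genes, *Dnajb4* 0.17, *Dnajb5* -0.59, *Dnajb9* -0.035 and *Hspa9* -0.033.

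With each array left out in turn, limma pools the spread, which takes the single array left in a genotype to vary as the remaining pair does. Then 107 to 2215 probes, 0 to 4 chaperone genes and 0 to 2 of the named genes met the criteria, with the highest counts without KO pool 1. Medians ranged from -0.14 to 0.092 over all chaperone genes, -0.40 to 0.054 for inducible, -0.19 to 0.24 for constitutive, -0.28 to 0.083 for ER and -0.038 to 0.27 for mitochondrial genes. Ranges that crossed 0 were those of *Dnaja1* (-0.036 to 0.56), *Dnajb1* (-0.51 to 0.30), *Dnajb11* (-0.12 to 0.24), *Dnajb4* (-0.29 to 0.20), *Dnajb9* (-0.35 to 0.38), *Dnajc1* (-1.44 to 0.57), *Dnajc10* (-0.12 to 0.64), *Dnajc15* (-0.38 to 1.17), *Dnajc19* (-0.043 to 1.41), *Dnajc30* (-0.032 to 0.28), *Hspa13* (-0.11 to 0.48), *Hspa1a* (-7.12 to 0.047), *Hspa5* (-0.85 to 0.26), *Hspa9* (-0.19 to 0.22), *Hspb8* (-0.82 to 0.060) and *Hsph1* (-0.36 to 0.32). The cause of these changes was not tested. Signals near background bound the *Hspa1a* and *Dnaja4* differences on slide 2.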
